A study of Mus musculus with 6 samples.

Results

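Transcripts of the oxidative phosphorylation system were examined in whole liver from mice whose hepatocytes lack let-7b and let-7c-2, both microRNAs, (LKO) and from wild type mice. The members were all listed genes whose symbol marks a subunit of complex I (Ndufa, Ndufb, Ndufc, Ndufs and Ndufv), complex II (Sdha to Sdhd), complex III (Uqcr), complex IV (Cox4 to Cox8) or complex V (Atp5), together with every mitochondrially encoded gene (mt-). This rule uses no measured value, and it found 95 of 14002 listed genes: 80 nuclear-encoded and 15 mitochondrially encoded. Of the 80, 36 belong to complex I, 4 to complex II, 8 to complex III, 15 to complex IV and 17 to complex V. Ndufa4 and its paralog Ndufa4l2 carry complex I names but were counted with complex IV, where the Ndufa4 protein is now placed. Ndufb4c is annotated as a processed pseudogene, and Atp5s and Cox7a2l encode factors rather than structural subunits.

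RNA came from 3 wild type and 3 LKO liver samples. All mice were C57BL/6, carried an age label of 8 weeks and had eaten a 60% high-fat diet for 8 weeks. The LKO genotype is labelled as a hepatocyte knockout of let-7b and let-7c-2. The sources used here do not give the recombinase that produced it or the sex of the mice. The values are a deposited expression signal, 1 per gene and mouse, that is normalized per library but not per gene length.

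The respiratory chain passes electrons from NADH (complex I) and succinate (complex II) through coenzyme Q, complex III and cytochrome c to oxygen at complex IV, and ATP synthase (complex V) uses the resulting proton gradient to make ATP. Most subunits are encoded in the nucleus and imported, while a small set of hydrophobic core subunits is transcribed from mitochondrial DNA as long polycistronic precursors. In hepatocytes the chain reoxidises the NADH and reduced flavoproteins made by fatty acid oxidation.

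The microRNAs removed in LKO hepatocytes are shown because the genotype label names their loss. They were not measured in these libraries, so the knockout itself was not checked here. The sequences are those of RefSeq (GRCm38.p6), written 5′ to 3′ with the seed, bases 2 to 8, in capitals. Let-7b lies at chr15:85707325-85707346 and let-7c-2 at chr15:85706616-85706637, both on the plus strand, and their mature forms share 21 of 22 positions.
let-7b-5p: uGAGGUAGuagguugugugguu
let-7c-5p: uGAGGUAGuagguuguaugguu
The members carried few matches to this seed. In the longest annotated 3′ untranslated region of each of 78 tested nuclear members, none held the 8mer CTACCTCA and 2 held a 7mer (CTACCTC or TACCTCA), a share of 2.56% with any of these sites. Among 10700 tested genes with such a region, 4.38% held the 8mer and 18.8% held any site. The regions of the members were short, with a median of 272 bases against 1350 over all genes, and a shorter region has fewer places for a match. Both 7mer matches are shown with 30 bases of transcript strand and the match in capitals. The Cox7b match lies at chrX:106022195-106022201 on the plus strand, and the Ndufa10 match at chr1:92452068-92452074 on the minus strand.
Cox7b: cttactgccctCTACCTCgtggttatattt
Ndufa10: accattccggtCTACCTCccagaaatcact
Cox7b, a small subunit of complex IV, had signals of 143, 167 and 171 in wild type replicates 1 to 3 and 144, 134 and 141 in LKO replicates 1 to 3. Ndufa10, an accessory subunit of complex I, had 162, 182 and 185 against 172, 147 and 170. The groups overlapped in both genes, and neither was called.

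Estimated reads over all listed genes ranged from 8549483 to 10764825 per library. Nuclear members took between 85004 and 133273 of them and mitochondrially encoded members between 320334 and 529455. LKO replicate 2 stood apart in composition: its 10 most abundant genes held 24.2% of the signal, against 18.7% to 21.02% in the other 5 libraries. The 8 hepatocyte markers were abundant in every library, with a summed signal of 133449 to 165355 in wild type and 130390 to 198535 in LKO. Their median log2 fold change was 0.23 (range -0.49 to 0.68) with none called, and Alb averaged 107540 and 112511. Of 8 Kupffer cell and macrophage markers, 4 (Clec4f, Csf1r, Vsig4 and Timd4) rose in LKO and none fell, with a summed signal of 83.0 to 94.8 in wild type and 132 to 184 in LKO. Over all tested genes 1.82% were called raised and 1.69% lowered. The summed signal of 5 erythroid genes was 677 to 878 in wild type and 871 to 1266 in LKO, and 1 of the 5, Hba-a1, rose. The only listed skeletal and cardiac muscle marker, Acta1, was at 0 in all 6 libraries. Sinusoidal endothelial and stellate cell markers (8 each) had medians of 0.28 and 0.15 with none called. Values were positive in 8 endothelial and 7 stellate markers. Every LKO value lay above every wild type value in 3 and 2 of them, against 12.2% of all tested genes, and in 0 of either list did every LKO value lie below. The summed signal of 6 cholangiocyte markers was 16.3 to 40.5 in wild type and 24.7 to 58.4 in LKO, and that of 8 lymphocyte markers 1.26 to 2.76 and 4.32 to 8.18, with 1 lymphocyte marker, Cd4, raised. Summed signals of 3 neutrophil and 2 adipocyte markers did not exceed 1.67 and 10.1 in any library. The part of these cell types in the values that follow was not tested. In bulk liver, fewer cells of a type and less RNA per cell cannot be told apart.

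Across nuclear-encoded members, transcripts sat slightly lower in LKO livers, and 1 of 79 tested genes passed the test. Log2 fold changes (LKO relative to wild type, computed on log2(value + 1)) had a median of -0.16 over these 79 genes, against -0.0017 over all 11168 genes tested with limma. They were negative in 72 of 79 members, a share of 91.1% against 50.2% of all tested genes. One member, Ndufb6, was lowered at an adjusted p under 0.05, and none was raised. Over all tested genes 1.69% were lowered and 1.82% raised at that threshold, so the 1 call among the members is near the background. An unadjusted p under 0.05 was reached by 14 nuclear members with lower values and 1 with a higher value, where 8.86% and 9.58% of all tested genes reached it. Cox6b2, whose mean signal was below the minimum of 1, was the 1 nuclear member left out of the test.

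The groups did not overlap in 24 of the 79 nuclear members (30.4%), with every LKO value below every wild type value, while 11.9% of all tested genes had that order. No nuclear member had every LKO value above every wild type value, an order seen in 12.2% of all tested genes. The members were read in the same libraries, so they are not independent of each other. Leaving out a library can only keep or raise the count without overlap, so it cannot show whether that count rests on a single library. It was 44 with wild type replicate 1 left out and 40 with LKO replicate 3 left out, where all tested genes gave 16.9% and 15.8%. Transcript length moved with the fold change: among all 615 tested genes whose longest annotated transcript is under 1000 bases, the median log2 fold change was -0.10, 63.1% of values were negative and 18.2% had every LKO value below wild type. Of the 80 nuclear members 39 fall under that length. The 38 of these that were tested had a median of -0.19, and the 41 longer members had one of -0.13. Every LKO value lay below wild type in 28.9% of those 38 and in 31.7% of the 41. The 10538 longer genes among all tested had a median of 0.0029, and 11.6% had every LKO value below wild type. The part of transcript length in the result was not tested.

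**Figure D1:**
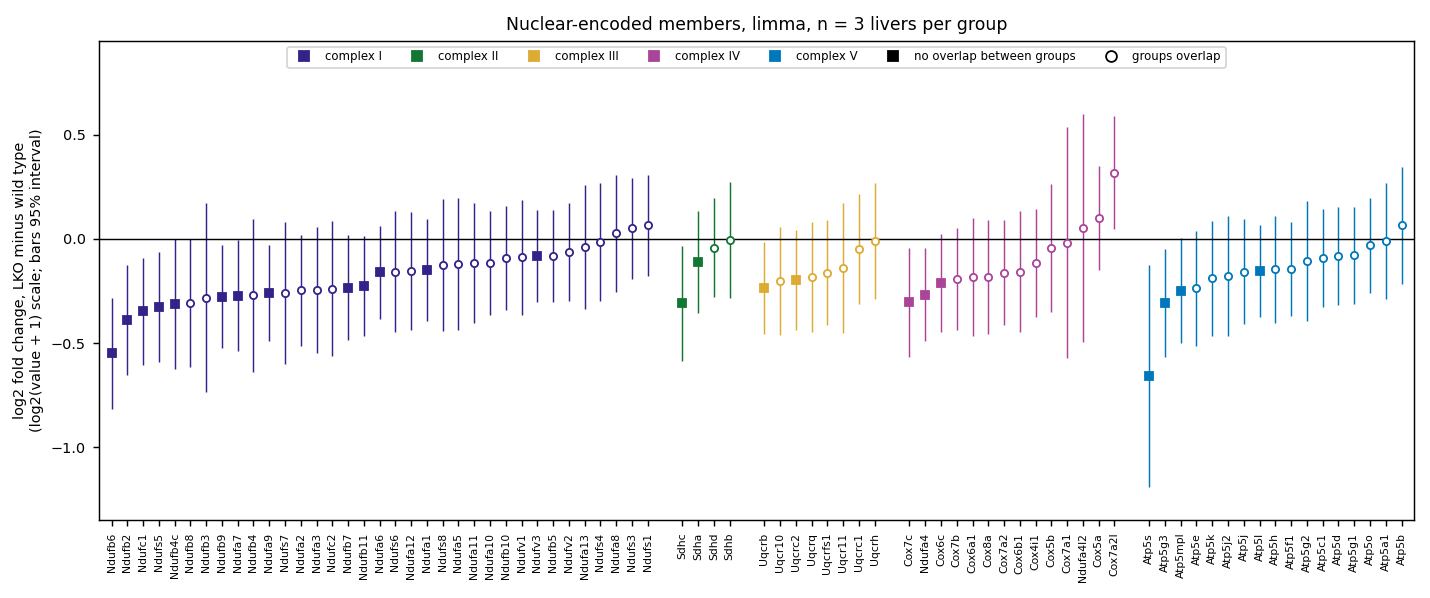
Log2 fold change of 78 of the 79 tested nuclear-encoded members (LKO relative to wild type, on log2(value + 1)) with its 95% interval from limma, grouped by complex and ordered by value. Filled squares mark the 24 members whose groups did not overlap. Most values lie below 0, and Ndufb6, the only member called, is the first of complex I.

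**Figure D2:**
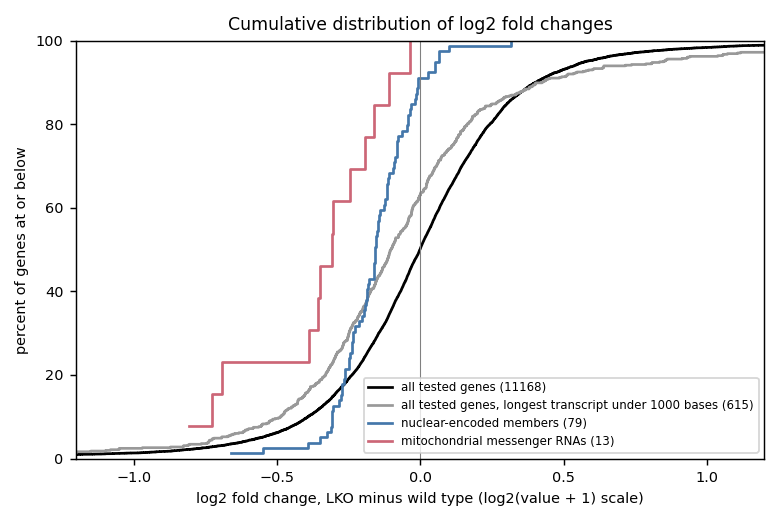
Percent of genes (vertical axis) at or below a given log2 fold change (horizontal axis) for all 11168 tested genes, the 615 with a longest transcript under 1000 bases, the 79 nuclear-encoded members and the 13 mitochondrial messenger RNAs. The line of the nuclear members crosses 0 at 91.1%, that of all genes at 50.2% and that of short genes at 63.1%.

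LKO replicate 2 gave the lowest values of the nuclear members, and the per-library medians overlapped between the groups. For each library, the median over the 79 members of the difference from the wild type mean was taken on the log2(value + 1) scale. Wild type replicates 1, 2 and 3 had -0.07, 0.09 and -0.0071. LKO replicates 1, 2 and 3 had -0.12, -0.29 and -0.06, so wild type replicate 1 lay below LKO replicate 3. The pooled SD of these medians within groups was 0.101. LKO replicate 2 held the lowest value of 65 of the 79 members, and wild type replicate 2 the highest value of 44. Without LKO replicate 2 the median log2 fold change of the members was -0.10, with 61 of 79 values negative. The count without overlap was then again 24, where all tested genes gave 16.3%. Without wild type replicate 2 the median was -0.11 and 64 of 79 values were negative. The summed signal of all nuclear members was 14145, 15530 and 14725 in wild type and 13924, 12654 and 14548 in LKO. As a share of all signal this was 1.29% ± 0.0176 (SD, n = 3) in wild type and 1.14% ± 0.135 in LKO.

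**Figure D3:**
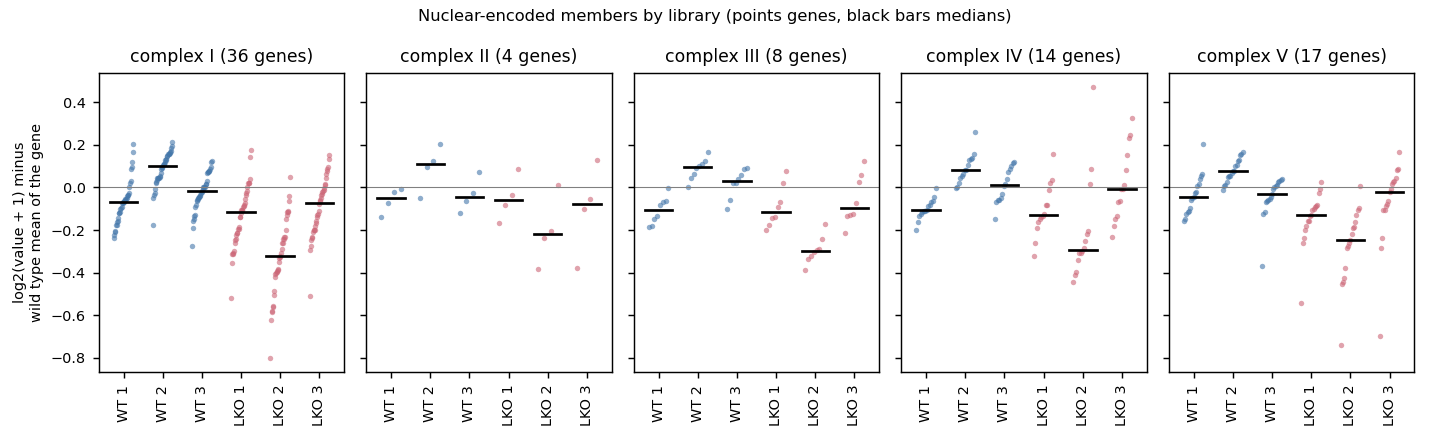
Difference of each nuclear-encoded member from its wild type mean (log2(value + 1) scale) in each of the 6 libraries, by complex, with points for genes and black bars for medians. LKO replicate 2 has the lowest median in each of the 5 complexes, from -0.32 in complex I to -0.22 in complex II.

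Complex I, the entry point for electrons from NADH, held the called gene and 13 of the 24 members without overlap, and it also makes up 36 of the 79 tested nuclear members. These 13 are 36.1% of its nuclear members, where all tested genes gave 11.9%. Its 36 nuclear members had a median log2 fold change of -0.16 and a range of -0.55 to 0.06, with 33 negative values. Ndufb6 (chromosome 4, 40270591 to 40279421, GRCm38) encodes an accessory subunit of the membrane arm. Its signal was 67.5, 59.8 and 53.9 in wild type and 41.7, 38.7 and 42.0 in LKO. All 3 LKO values lay below the lowest wild type value. The log2 fold change was -0.55 (standard error 0.12, 95% interval -0.82 to -0.28), with an adjusted p of 0.038 in limma. This call was lost when any library but wild type replicate 3 was left out: the adjusted p in limma was 0.117 without wild type replicate 1, 0.111 without wild type replicate 2, 0.053 without LKO replicate 1, 0.127 without LKO replicate 2 and 0.11 without LKO replicate 3.

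Accessory subunits of complex I, which surround the catalytic centre, had more negative values than the core. Of 29 accessory members, 13 had every LKO value below wild type (44.8%, against 11.9% of all tested genes and 18.2% of those with a short transcript) and the median was -0.23. The 7 nuclear core subunits, which bind the flavin, the iron-sulfur clusters and the quinone, overlapped in all 7 genes and had a median of -0.09. This split was made after the values were seen, and the difference between core and accessory members was not tested. Within the accessory set, the 11 Ndufb members had a median of -0.28, with 6 without overlap (54.5%, against the same 11.9%), the pseudogene Ndufb4c among them.

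Ndufb2, another membrane arm subunit, had signals of 58.5, 60.6 and 59.7 in wild type and 47.7, 39.4 and 49.0 in LKO. Its log2 fold change was -0.39 (standard error 0.12, limma adjusted p 0.111). Ndufc1, a small membrane arm subunit, had 41.5, 37.2 and 36.0 in wild type and 29.7, 28.7 and 31.0 in LKO, with a log2 fold change of -0.35. The groups were apart in both genes, and neither was called.
Ndufs5, an accessory subunit on the intermembrane space side, had 62.7, 69.9 and 64.9 against 52.7, 46.7 and 57.9, a log2 fold change of -0.33. For Ndufa9, which sits where the peripheral and membrane arms meet, wild type signals were 151, 153 and 173 and LKO signals 133, 128 and 135. Its log2 fold change was -0.26 (standard error 0.10, limma adjusted p 0.21). The accessory genes Ndufb9 and Ndufa7 had log2 fold changes of -0.28 and -0.27, and their groups did not overlap either. By contrast, the groups overlapped for Ndufv1, a core gene with a high signal that carries the flavin site. It averaged 225 ± 5.95 (SD, n = 3) in wild type and 213 ± 30.1 in LKO. Its log2 fold change was -0.09, with a 95% interval of -0.37 to 0.19. The 3 complex I members with positive values were Ndufs1 (0.06), Ndufs3 (0.05) and Ndufa8 (0.03).

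**Figure D4:**
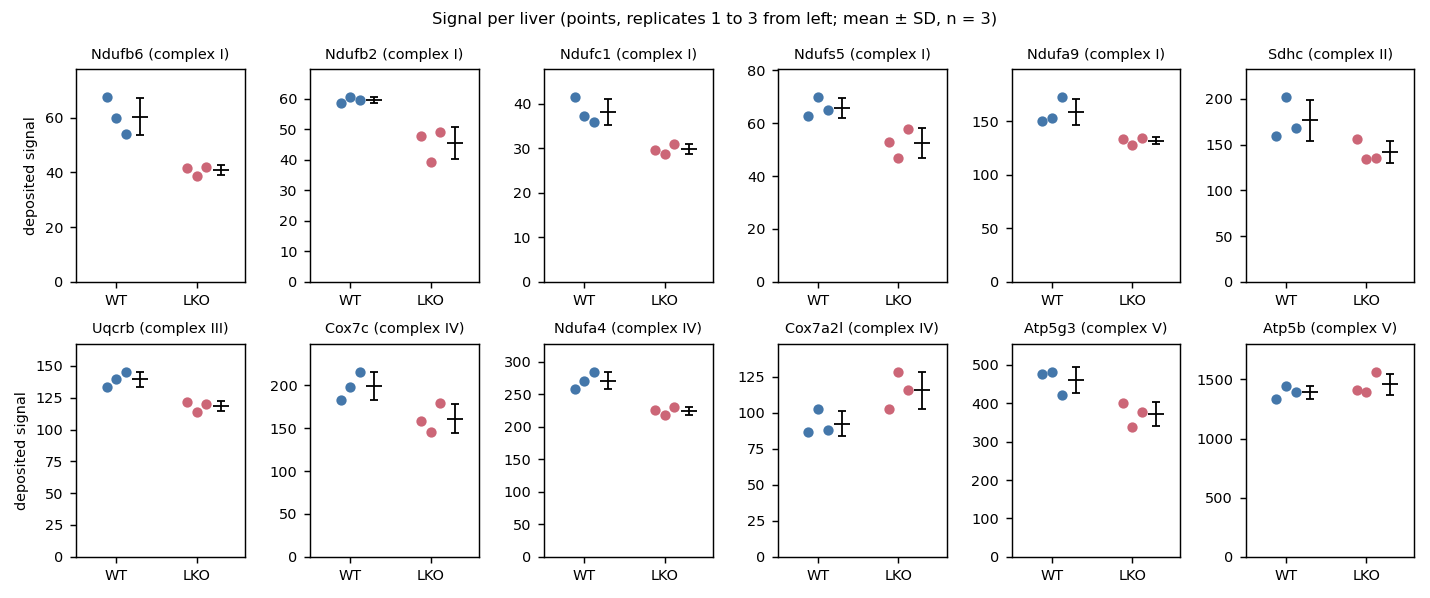
Deposited signal of 12 nuclear-encoded members in each liver, with points for replicates 1 to 3 from left to right and the mean ± SD (n = 3) beside them; every axis starts at 0. Ndufb6 runs from 53.9 to 67.5 in wild type and from 38.7 to 42.0 in LKO, whereas Cox7a2l is higher in LKO and the groups of Atp5b overlap.

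Complex II, succinate dehydrogenase, is entirely nuclear-encoded and also belongs to the TCA cycle. None of its 4 subunits was called. Sdhc, a membrane anchor that holds the quinone site and heme, had signals of 159, 202 and 168 in wild type and 156, 134 and 135 in LKO. The groups did not overlap, with a log2 fold change of -0.31 (standard error 0.12, limma adjusted p 0.218). Sdha, the flavoprotein, with the highest signal of the 4, had 610, 599 and 650 in wild type and 585, 538 and 597 in LKO. Its groups were just apart, at 597 against 599, with a log2 fold change of -0.11. Sdhb, the iron-sulfur subunit, averaged 232 ± 14.4 and 232 ± 30.8 (SD, n = 3), a log2 fold change of -0.0065 with a 95% interval of -0.28 to 0.27. Sdhd, the other membrane anchor, had a log2 fold change of -0.04.

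Complex III, which passes electrons from reduced coenzyme Q to cytochrome c, had 8 nuclear members, all with negative values and none called. Their median was -0.17 and their range -0.23 to -0.0087. Uqcrb, a small subunit near the quinone site, had 133, 140 and 145 in wild type and 121, 114 and 120 in LKO. The LKO values were all lower, with a log2 fold change of -0.23 (standard error 0.10, limma adjusted p 0.242). Uqcrc2, a core protein, averaged 298 ± 14.9 and 260 ± 19.2 (SD, n = 3) without overlap, a log2 fold change of -0.20. The other core protein gene, Uqcrc1, had the highest signal of these nuclear members and overlapped, at 347 ± 14.5 and 337 ± 38.9. Uqcr10, a small transmembrane subunit, had a log2 fold change of -0.20. Cyc1, which encodes cytochrome c1 and falls outside the name rule, had a log2 fold change of 0.04. Cycs, the gene of cytochrome c itself, had -0.09.

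Complex IV, cytochrome c oxidase, held the member with the largest positive value. Of 14 tested nuclear members 11 were negative, the median was -0.16 and none was called. Cox7c, a small subunit, had 183, 199 and 216 in wild type and 159, 146 and 179 in LKO. The groups were apart, with a log2 fold change of -0.30 (standard error 0.12, limma adjusted p 0.202). Ndufa4 had 258, 271 and 284 against 225, 218 and 230, also without overlap, and a log2 fold change of -0.27 (standard error 0.10, limma adjusted p 0.189). Cox7a2l, which helps complexes III and IV associate into supercomplexes, went the other way. Its signals were 86.8, 102.8 and 87.8 in wild type and 102.8, 128 and 116 in LKO. The highest wild type and the lowest LKO value met, so the groups were not apart. Its log2 fold change was 0.32 (standard error 0.12, 95% interval 0.04 to 0.59, limma adjusted p 0.201), and it was positive under every scaling and with each library left out.

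Several subunits of complex IV have isoforms with tissue-specific use. Cox4i1, the general form of the largest nuclear subunit, averaged 436 ± 39.3 in wild type and 402 ± 29.4 in LKO (SD, n = 3). Cox6a1, the general form of its subunit, averaged 263 ± 16.7 and 232 ± 32.5, and Cox6b1 averaged 230 ± 17.3 and 207 ± 29.6. Cox7a2, the liver form, averaged 145 ± 12.5 and 129 ± 9.88. Cox7a1, the heart and muscle form, averaged 1.18 ± 0.0786 and 1.17 ± 0.348. The lowest Cox7a1 count was 6 estimated reads. Cox6b2, a testis form, had at most 0.391 units in any library, where 3 estimated reads correspond to 0.331 to 0.447 units, and was at 0 in 3 libraries. Cox8a averaged 202 ± 23.5 and 177 ± 14.7. Ndufa4l2, a hypoxia-responsive relative of Ndufa4, averaged 1.23 ± 0.36 and 1.29 ± 0.0873. The groups overlapped for every isoform gene in this paragraph.

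Complex V, ATP synthase, had 17 nuclear members with a median of -0.15, 16 of them negative and none called. The catalytic head genes Atp5b and Atp5a1 had the highest signals of all nuclear members, and their groups overlapped. Atp5b, the beta subunit with the catalytic sites, had 1337, 1446 and 1395 in wild type and 1415, 1397 and 1563 in LKO, which gave a log2 fold change of 0.07 with a 95% interval of -0.21 to 0.35. Atp5a1, the alpha subunit, averaged 1379 ± 19.9 and 1371 ± 89.6 (SD, n = 3). Atp5g1, Atp5g2 and Atp5g3 encode the same mature c subunit of the membrane ring behind different import sequences. Atp5g3, the most abundant of them, had 477, 482 and 421 in wild type and 400, 338 and 376 in LKO. All LKO values were lower, with a log2 fold change of -0.31 (standard error 0.12, limma adjusted p 0.193). Atp5g1 and Atp5g2 had log2 fold changes of -0.08 and -0.11, and their groups overlapped. Atp5mpl, a small membrane subunit, averaged 62.6 ± 6.26 and 52.4 ± 0.364 without overlap, a log2 fold change of -0.25. Atp5s, a coupling factor rather than a subunit, had 3.78, 3.66 and 2.21 in wild type and 1.85, 1.49 and 1.56 in LKO. Its log2 fold change of -0.66 (standard error 0.24, limma adjusted p 0.174) rests on as few as 10 estimated reads in a library.

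Mitochondrially encoded messenger RNAs were also lower in LKO on average, with a wide spread inside the wild type group. None of the 13 was called, against 3.51% of all tested genes in either direction. All 13 log2 fold changes were negative, with a median of -0.31 and a range of -0.81 to -0.04, and 11 were negative without wild type replicate 1. In 3 of 13 the groups did not overlap (23.1%, against 11.9% of all genes), or in 2 of 13 with median-of-ratios scaling. That count was 9 with wild type replicate 2 left out and 10 with LKO replicate 2 left out, where all tested genes gave 16.3% in each case. It stayed at 3 with any other library left out, where all tested genes gave 15.8% to 19.5%. Together these messages made up 5.62%, 3.89% and 5.02% of the signal in wild type replicates 1, 2 and 3. They made up 3.62%, 4.02% and 3.36% in LKO replicates 1, 2 and 3. Wild type replicate 2 thus lay among the LKO livers, and wild type replicate 1 held the highest value of 8 of the 13 messages. The 2 ribosomal RNAs, which lie first on the same strand, went the other way, with log2 fold changes of 0.12 (mt-Rnr1) and 0.29 (mt-Rnr2) and overlapping groups. The library kit named in the labels is made for messenger RNA, so these 2 values do not give the rRNA content.

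**Figure D5:**
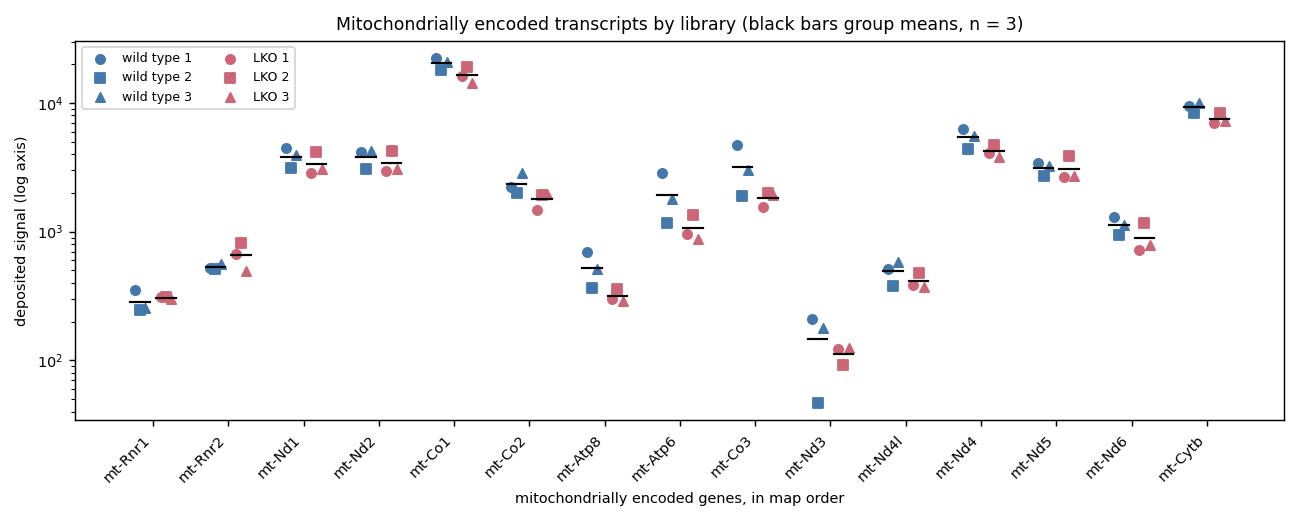
Deposited signal (log axis) of the 15 mitochondrially encoded genes in map order, for each of the 3 wild type and 3 LKO livers, with black bars for group means. For mt-Atp8, mt-Atp6 and mt-Co3, which lie side by side, wild type replicate 1 is highest and wild type replicate 2 is close to the LKO livers.

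The largest differences fell on the neighbouring genes mt-Atp8, mt-Atp6 and mt-Co3. The first 2 encode membrane subunits of ATP synthase and the third a core subunit of cytochrome c oxidase. Mt-Atp8 (mitochondrial genome, 7766 to 7969) had signals of 695, 367 and 510 in wild type and 299, 357 and 288 in LKO. The groups were apart by a small gap, with a log2 fold change of -0.69 (standard error 0.21, limma adjusted p 0.106). Without wild type replicate 2 the adjusted p in limma was 0.0388, within a range of 0.0388 to 0.277 over all alternatives. Mt-Atp6 (7927 to 8607) overlaps mt-Atp8 on the same strand, so reads cannot be fully assigned between them. Its signals were 2836, 1176 and 1807 in wild type and 967, 1336 and 873 in LKO, which gave a log2 fold change of -0.81 (standard error 0.29, limma adjusted p 0.173) with overlapping groups. Without wild type replicate 1 it was -0.485, and without wild type replicate 2 it was -1.12. Mt-Co3 (8607 to 9390) had 4723, 1878 and 3024 against 1541, 2009 and 1913, a log2 fold change of -0.73 (standard error 0.29, limma adjusted p 0.218), and its groups overlapped.

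The other core subunits of complexes III and IV had moderate values. Mt-Cytb, the cytochrome b gene, had 9443, 8321 and 9965 in wild type and 6929, 8312 and 7188 in LKO. The groups were just apart, at 8312 against 8321, with a log2 fold change of -0.31 (standard error 0.20, limma adjusted p 0.455). Mt-Co1, the catalytic subunit of cytochrome c oxidase, had 22370, 17910 and 20671 against 16255, 19015 and 14187, a log2 fold change of -0.31 (standard error 0.26) with overlap. Mt-Co2, which receives electrons from cytochrome c, had 2238, 2001 and 2848 against 1486, 1944 and 1963. Its groups did not overlap, and its log2 fold change was -0.39 (standard error 0.18, limma adjusted p 0.289). With median-of-ratios scaling 1 of the 3 separated messages overlapped.

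The 7 mitochondrially encoded complex I messages overlapped between the groups in every case. Their median was -0.19. Mt-Nd4 had the lowest value, -0.36, with 6273, 4405 and 5544 in wild type and 4086, 4699 and 3806 in LKO. Mt-Nd6, transcribed from the opposite strand to the others, had -0.35, and mt-Nd4l, which overlaps mt-Nd4, had -0.24. Mt-Nd1 and mt-Nd2 had -0.19 and -0.16, and mt-Nd5 had -0.04 with a 95% interval of -0.46 to 0.39. Mt-Nd3 spread most in wild type, with 211, 46.6 and 179, against 123, 91.9 and 124 in LKO. Its 95% interval ran from -1.13 to 0.91, so neither direction could be told at this spread.

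Per kilobase of transcript, mitochondrial messages stood far above nuclear ones. The mean signal per kb over the 6 libraries was 11910 for mt-Co1 and 7307 for mt-Cytb. The other mitochondrial messages lay between 1526 (mt-Nd4l) and 3760 (mt-Nd1), except mt-Nd3 at 371. Among nuclear members the highest was Atp5b, at 744 per kb of its longest transcript. With the union of annotated exons as the length, Atp5b had 336 and Atp5a1 was highest at 439, so the order among nuclear members depends on the length used. The signal of mitochondrial messages relative to nuclear members was 4.42, 2.98 and 3.92 in wild type and 2.96, 4.08 and 2.77 in LKO. These ratios overlapped between the groups.

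Promoters of the nuclear members were searched for motifs of factors known to drive respiratory genes. Each RefSeq promoter window (GRCm38.p6) holds 250 bases before and 50 after the start, and 66 of 80 nuclear members had one. The NRF1 motif (GCGCA, any base, GCGC), read on both strands, was in 16 of 66 member windows (24.2%) and in 4.78% of all 27025 windows, or 11.2% of the windows of 8641 tested genes. The YY1 motif AANATGGCG was in 12.1% of member windows, against 5.86% for tested genes, and the GABPA motif CCGGAAGT in 7.58% against 9.08%. The ERRA motif TCAAGGTCA was in 2 member windows (3.03%), against 0.407% of all windows and 0.266% for tested genes. These 2 were Atp5g3, whose groups did not overlap, and Sdhd, whose groups did and whose motif lies after the start. The PPARα motif, a direct repeat of AGGTCA spaced by 1 base, was in 0 of 66 and in 12 of 27025. The ERRA motif ends in the AGGTCA that the PPARα motif repeats. The NRF1 motif was in 4 of 17 members with every LKO value below wild type and in 12 of the 49 others, and the window of Ndufb6 held none of the 5. A match describes the letters and not a bound site. A few windows of 30 bases upstream of the start are shown on the gene's strand with the motif in capitals, chosen to set members without overlap (Sdha, Ndufs5 and Atp5g3) beside members with overlap (Sdhd, Ndufa8). The Sdha windows are chr13:74350319-74350348 and chr13:74350276-74350305, that of Ndufs5 is chr4:123718265-123718294, that of Sdhd is chr9:50603909-50603938 and that of Ndufa8 is chr2:36049349-36049378, all with the NRF1 motif, and that of Atp5g3 is chr2:73911359-73911388 with the ERRA motif. These genes are all on the minus strand.
Sdha distal: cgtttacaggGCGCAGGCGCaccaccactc
Sdha proximal: ggggcgtgttGCGCAGGCGCagaatcttcc
Ndufs5: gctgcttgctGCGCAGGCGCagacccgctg
Sdhd: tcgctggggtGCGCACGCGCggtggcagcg
Ndufa8: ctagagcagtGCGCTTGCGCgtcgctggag
Atp5g3: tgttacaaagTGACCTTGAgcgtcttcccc

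Genes that build and regulate the chain were not called in either direction. Of 15 further subunits and electron carriers none was called, and the median was -0.20. Etfdh, which passes electrons from fatty acid oxidation to coenzyme Q, had 342, 311 and 404 in wild type and 294, 217 and 239 in LKO, which gave a log2 fold change of -0.50 (standard error 0.15, limma adjusted p 0.102). It was named after its value was seen. Its electron donors Etfa and Etfb had -0.31 and -0.27, and all 3 were without overlap. Among the 15 genes every LKO value lay below wild type in 4 (26.7%), against 11.9% of all tested genes. Only Gpd2 (0.19) had every LKO value above wild type, an order seen in 12.2% of all tested genes. Of the 15 log2 fold changes 11 were negative and 4 positive. Of 15 complex I assembly genes and 35 assembly genes of the other complexes 0 were called in limma, with medians of -0.07 and -0.20. The counts at an unadjusted p under 0.05 were 0 lowered and 0 raised for complex I assembly and 6 lowered and 1 raised for the others. Over all tested genes 8.86% were lowered and 9.58% raised at that threshold and 3.51% were called after adjustment, so lists of this size with 0 called are near the background. Values were negative in 11 of the 15 complex I assembly genes and in 28 of the 35 others. Every LKO value lay below every wild type value in 0 of the 15 and in 11 of the 35 (31.4%), against 11.9% of all tested genes. The opposite order was seen in 0 and 2, against 12.2%. In both assembly lists the 2 genes with the highest mean signal had overlapping groups. The complex I assembly factors Acad9 and Ecsit had log2 fold changes of -0.28 and -0.06. Uqcc1 (complex III) and Coa5 (complex IV) had 0.04 and 0.0034. Of 13 coenzyme Q synthesis genes 0 were called in limma, with a median of -0.13 and with 2 lowered and 1 raised at the unadjusted threshold. Coq8a and Coq9, the most abundant of them, had -0.54 and -0.07 with overlap.

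Among 15 tested regulators of mitochondrial biogenesis the median was 0.20, and again 0 were called in limma. At an unadjusted p under 0.05, 2 were lowered and 1 was raised. Values were positive in 11 of the 15. Every LKO value lay above wild type in 4 of the 15, against 12.2% of all tested genes, and below in 2, against 11.9%. Ppara, the lipid-sensing nuclear receptor with the highest signal of the list, averaged 117 in wild type and 119 in LKO with overlap. Sirt3, a mitochondrial deacetylase, averaged 106 and 79.5 with no overlap, a log2 fold change of -0.41 (standard error 0.13, limma adjusted p 0.13). The coactivator gene Ppargc1a, named after its value was seen, had 15.4, 15.5 and 13.8 in wild type and 17.9, 18.01 and 18.3 in LKO. Its values were higher in all LKO livers, with a log2 fold change of 0.26 (limma adjusted p 0.307). Esrrg, also named after its value was seen, had the lowest adjusted p of the list. Its signals were 5.99, 3.53 and 3.54 in wild type and 1.06, 0.595 and 2.45 in LKO. The log2 fold change of Esrrg was -1.22 (standard error 0.32, limma adjusted p 0.0733) without overlap, on as few as 4 estimated reads in a library. Tfam, which packages and transcribes mitochondrial DNA, had 48.05, 46.3 and 44.97 in wild type and 39.6, 36.02 and 32.4 in LKO. All LKO values were lower, with a log2 fold change of -0.36 (standard error 0.12, limma adjusted p 0.133). The 17 tested genes of mitochondrial DNA maintenance and transcription had a median of -0.12, and the 20 genes of mitochondrial RNA processing one of -0.05. The polymerase gene Polg had -0.02, the RNA-stabilising gene Lrpprc 0.20 and the RNase P component Hsd17b10 -0.42, all with overlap.

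TCA cycle genes, which feed the chain with NADH and succinate, were divided in direction. The 23 tested genes had a median of -0.03, with 12 negative and 11 positive values and none called. Suclg2, a subunit of the GTP-forming succinyl-CoA ligase, had 340, 379 and 404 in wild type and 273, 272 and 274 in LKO, which gave a log2 fold change of -0.45 (standard error 0.11, limma adjusted p 0.0532). Pcx, pyruvate carboxylase, had -0.22 with overlap. Idh3a and Pdhb, named after their values were seen, had values of 0.76 and 0.67 with every LKO value above wild type. Nucleotide carriers and porins had a median of -0.08 over 9 genes, and the mitochondrial chaperones and proteases one of -0.18 over 18. Slc25a5, an adenine nucleotide carrier, had -0.13 with every LKO value below wild type. The chaperone genes Hspa9 and Hspd1 had -0.04 and -0.13, and the groups of both overlapped. Further sets were taken after the members' values were seen. Of these, 78 mitochondrial ribosomal protein genes had a median of -0.13 with 68 negative. The 23 mitochondrial import genes (Timm and Tomm) had a median of 0.0019 with 11 negative, and 79 cytosolic ribosomal protein genes had one of 0.08 with 19 negative.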

How the data were processed

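Per the submitters' processing notes, the tools named are RSEM 1.2.22, STAR 2.5.1, edgeR, Trimmomatic 0.36, bcl2fastq 2.17 and Picard 1.84, with the mm10 build and with no role or order. The labels' protocols name a stranded mRNA library kit. The authors deposited 1 expression signal per gene and library, whose unit the file headers do not name. In each library 100% of values lay on hundredths of 1 common step (tolerance 0.05 of a hundredth), so the signal behaves as an estimated count times 1 factor. Between 82.04% and 83.1% of values were whole reads within 0.005. The main fit used the signal itself, and limma-voom on the estimated counts was an alternative. Intervals and floors from reads cover counting error only.

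Genes with a mean signal of at least 1 were fitted as log2(signal + 1) with limma 3.58.1 in R 4.3.3 (empirical Bayes with a trend, two-sided, Benjamini-Hochberg over all 11168 tested genes, adjusted p under 0.05). The fit was tested on simulated data. Coordinates, lengths and 3′ regions came from GENCODE M21 (GRCm38, the assembly of mm10). The p-values measure the spread between 3 samples per group, and nothing in the labels says more of how the samples relate.

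The members and lists were chosen with earlier results of these data known. Named genes were members that were called or separated (no overlap with an unadjusted p under 0.05), mitochondrial messages, complex II and isoform sets. For each complex the 2 members with the highest mean signal were named, and the 2 largest changes with a mean of at least 10. From each list up to 4 called genes were named, or else the 2 with the highest mean signal. Others are named only as examples, and 2 genes that the rule names are not reported here. Alternatives were 3 scalings, 2 filters, pseudocounts of 0.1 and 5, limma-voom, array weights, a replicate block and leaving out each library.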

Additional observations from a re-analysis of the deposited data

How the results depend on the processing

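The median log2 fold change of nuclear members stayed between -0.243 and -0.096 over all 16 alternatives, and that of mitochondrially encoded members, the rRNAs included, between -0.42 and -0.203. No named member that was called changed sign. The 1 lowered member was Ndufb6, except without wild type replicate 2, where it was mt-Atp8. With a library left out the count of lowered members ran from 0 to 1, and that of all lowered genes from 79 to 263 and of all raised genes from 76 to 277. The labels do not say whether the replicate numbers pair the samples. Correlations of deviations between same-numbered livers were small, at 0.0465, 0.0324 and 0.0535, though each liver correlated best with its own number. With the replicate number as a block the count of lowered members was 0, at an adjusted p of 0.0522 for Ndufb6 in limma. Over all its alternatives that p ran from 0.0291 to 0.127.

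In alternatives chosen after seeing the data, nuclear members with every LKO value below wild type numbered 41 with the library total without mitochondrial genes as scaling and 35 with the library total, where all tested genes gave 15.8% and 14.5%. They ran from 24 to 44 with a library left out, which leaves fewer values to overlap. Library totals moved the median of all genes to -0.0654, or -0.0816 without mitochondrial genes. Among the members, depth limits Cox7a1, Cox6b2, Ndufa4l2 and Atp5s, with 10 estimated reads or fewer in at least 1 library.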
